A study of Mus musculus with 52 samples.

Results

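Ataxin-2, the product of Atxn2, is an RNA-binding protein of the cytoplasm. The 8 mouse genes described here are Atxn2, which an artificial microRNA (amiR) was built to lower, its paralog Atxn2l, and 6 genes whose products bind ataxin-2 or meet it in stress granules: Pabpc1, Pabpc4, G3bp1, G3bp2, Lsm12 and Ddx6. They were chosen by name, 8 of the 55401 mouse genes in the count table, to ask whether the paralog or the partners shift when Atxn2 is lowered. All 8 passed the filter on low counts in each of 3 tissues.

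Poly(A) RNA was sequenced from 52 libraries of mouse spinal cord (18), cortex (17) and muscle (17), each tissue with 3 arms. The wild-type arm was FVB/NJ mice given vehicle; the vehicle arm was mice that carry human PFN1 with the C71G mutation, a profilin variant found in familial amyotrophic lateral sclerosis (ALS), and were given vehicle; the amiR arm was mice of that same transgenic line given an adeno-associated virus (AAV) that encodes the amiR against Atxn2. Each arm had 6 libraries per tissue, 2 or 3 of them from females, apart from cortex of wild-type mice and muscle of the vehicle arm with 5 each. Wild-type libraries were all from mice of 36 weeks, and 11 of the transgenic ones, spread over both transgenic arms, were from mice of 38 or 39 weeks. In spinal cord the 4 older mice and in muscle the 3 older mice were all female. No arm received a control virus, so the amiR arm differs from the vehicle arm in the whole vector. The labels do not give the promoter of the transgene, the route of the virus or the age at dosing, do not tie tissues to animals, and do not state that libraries of an arm are separate mice, so p-values measure the spread between these libraries.

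Ataxin-2 carries LSm-type domains and a short motif that docks onto the C-terminal domain of poly(A)-binding proteins, and it takes part in the control of translation and mRNA decay. When translation stalls, poly(A)-binding proteins, the G3BP proteins that seed stress granules and ataxin-2 gather in these granules, while the helicase DDX6 works mainly in processing bodies, where mRNAs are held silent or stripped of their caps. Expansion of the glutamine tract of ataxin-2 causes an inherited ataxia, and shorter expansions raise the risk of ALS, which is why its lowering has been studied in ALS models.

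The gene pairs among the 8 are paralogs, and the sequences below show how close they come, because counts of 2 near-identical genes could leak into each other and a microRNA against 1 gene could meet the other. Each sequence lies in the coding part of a GENCODE M21 transcript (GRCm38), is written 5′ to 3′ along the gene's strand, and has in capitals the longest run of bases that the paralogs share. The Atxn2 and Atxn2l windows each span 2 exons, and the coordinates enclose the intron between them. The Atxn2 window is at chr5:121772772-121777398 on the plus strand, and the Atxn2l window is at chr7:126499213-126500145 on the minus strand.
Atxn2: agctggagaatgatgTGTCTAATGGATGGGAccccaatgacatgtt
Atxn2l: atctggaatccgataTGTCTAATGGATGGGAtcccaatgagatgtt
The Pabpc1 window is at chr15:36608457-36608504 on the minus strand, and the Pabpc4 window is at chr4:123283617-123283664 on the plus strand.
Pabpc1: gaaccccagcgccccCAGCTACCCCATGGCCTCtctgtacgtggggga
Pabpc4: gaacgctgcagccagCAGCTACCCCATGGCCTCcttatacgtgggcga
The G3bp1 window is at chr11:55485644-55485675 on the plus strand, and the G3bp2 window is at chr5:92073223-92073254 on the minus strand.
G3bp1: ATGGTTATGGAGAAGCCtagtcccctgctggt
G3bp2: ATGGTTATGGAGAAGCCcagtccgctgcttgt

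The longest shared run was 16 bases for Atxn2 and Atxn2l, 18 bases for Pabpc1 and Pabpc4 and 17 bases for G3bp1 and G3bp2, and no pair shared a run of 21 bases in the transcripts compared. The guide sequence of the amiR was not used here, so its match to either ataxin gene was not examined. Copies elsewhere in the annotation were a separate matter. For Atxn2, Atxn2l and G3bp2 no 100-base stretch of the transcript was found in a transcript of another gene. For Pabpc1, G3bp1, Lsm12 and Ddx6 the share of such stretches was between 2.30% and 5.84%. For Pabpc4 it was 49.9%, most of it in the pseudogene Gm10110, so the counts of Pabpc4 are uncertain where they were split with its copies. Counts of the Pabpc4 copies came to between 8.89% and 14.1% of the sum with Pabpc4 in spinal cord, to 5.99% to 9.08% of it in the cortex and to 2.51% to 3.15% in muscle. Adding the copies changed no call of a member between arms in the main fit of each tissue. The ratios, differences between tissues, relations and alternative fits of Pabpc4 below were not repeated with the copies added.

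Mouse genes took between 66.5 M and 111.9 M counts per library (M, counts in units of 10 to the power 6). For 4 libraries of spinal cord, vehicle-arm replicates 5 and 6 and amiR-arm replicates 1 and 2, the treatment in the title is the reverse of that in the library's name, and titles were followed. The WPRE element of the vector followed the titles, with 3189 to 6962 counts in amiR-arm spinal cord, 2096 to 5852 in amiR-arm cortex, 1 to 5 in amiR-arm muscle and at most 1 in any other library. Human PFN1 had 0 or 1 counts in wild-type libraries and between 170 and 1616 CPM in the transgenic ones. Mouse Pfn1, the endogenous profilin-1 gene, rose by 0.45 (SE 0.06) on the log2 scale in vehicle-arm over wild-type spinal cord (edgeR adjusted p = 9.73e-06). It was not called in cortex (0.09, edgeR adjusted p = 0.995) or muscle (0.19, edgeR adjusted p = 0.0607). Vehicle-arm human PFN1 was 634 to 736 CPM in spinal cord, 775 to 1249 CPM in cortex and 170 to 299 CPM in muscle. Reads split with the human transgene were not told apart. AmiR-arm spinal cord replicate 2, also among the 4 conflicting libraries, stood apart: its summed muscle-fibre markers reached 528 CPM against at most 63.0 CPM in the other 17 spinal cord libraries, and its summed adipocyte markers 218 CPM against at most 22.8 CPM.

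The knockdown target came first. Atxn2 (ENSMUSG00000042605, chr5:121711337-121816493, plus strand) fell in amiR-treated spinal cord, where every treated library lay below every vehicle library. In CPM, the count of a gene relative to the library's total of mouse gene counts, scaled by TMM within the tissue, wild-type spinal cord libraries ran from 117.9 through a median of 122.5 to 133.2, vehicle-arm libraries from 103.4 through 105.9 to 110.7, and amiR-arm libraries from 70.9 through 72.7 to 73.5. The 3 arms thus formed 3 bands that did not overlap, and the amiR arm was the narrowest of them (mean 72.5 ± 0.859 CPM, SD, n = 6). Against the vehicle arm, Atxn2 changed by -31.7%, a log2 change of -0.55 (SE 0.03, 95% interval -0.62 to -0.48, edgeR adjusted p = 8.14e-08), in 6 of 6 libraries. When the 4 conflicting libraries were assigned by library name in place of title, this change was -0.28 and lost its call (edgeR adjusted p = 0.379). The vector counts followed the titles, so assignment by name puts libraries with and without the vector in each transgenic arm.

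Atxn2 was also lower in vehicle-arm than in wild-type spinal cord, before any amiR. That change was -0.22 on the log2 scale (SE 0.03, edgeR adjusted p = 7.99e-05), or -13.9%, and against wild type the amiR arm stood at -0.77 (SE 0.03, edgeR adjusted p = 2.17e-10), or -41.2%. With the 4 conflicting libraries assigned by library name, which puts vector-bearing libraries in the vehicle arm, vehicle minus wild type was -0.33 and lost its call (edgeR adjusted p = 0.0616). Beside it, the summed motor neuron markers were 140 to 170 CPM in wild-type and 26.5 to 119 CPM in vehicle-arm spinal cord, with 5 of 5 lower by test, and the summed microglia markers were 293 to 406 CPM and 900 to 1127 CPM, with 7 of 8 higher. Motor neuron markers in the amiR arm ran from 113 to 288 CPM and microglia markers from 497 to 1122 CPM. The part that these markers had in the change of Atxn2 was not tested. In bulk tissue, fewer cells of a type and less RNA per cell cannot be told apart.

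In cortex the shift of Atxn2 was smaller and did not pass the test. Wild-type cortex libraries held 94.2, 103.2, 105.5, 107.6 and 109.3 CPM, vehicle-arm libraries ran from 86.4 through a median of 102.8 to 109.3, and amiR-arm libraries from 72.6 through 85.4 to 91.7. Treated libraries all lay below the wild-type ones and overlapped the lowest vehicle library, and 6 of 6 lay below the vehicle mean. Against vehicle the log2 change was -0.27 (SE 0.07, interval -0.43 to -0.12, edgeR adjusted p = 0.187), and against wild type -0.31 (SE 0.08, edgeR adjusted p = 0.0561). DESeq2 called both, with adjusted p = 0.0397 and 0.00791.

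In muscle, where the vector left almost no counts, the arms overlapped throughout. Atxn2 ran from 57.0 to 65.8 CPM in wild-type muscle, from 53.1 to 69.9 CPM in the amiR arm, and stood at 56.3, 56.8, 58.7, 60.6 and 62.8 CPM in the vehicle arm. The amiR minus vehicle change was 0.04 on the log2 scale, with a 95% interval of -0.08 to 0.17 (edgeR adjusted p = 0.757). Tested as a difference between tissues in 1 model of 52 libraries, the amiR effect on Atxn2 was lower in spinal cord than in muscle, by a log2 difference of -0.62 (SE 0.08, edgeR adjusted p = 2.23e-05), the only call among the 8 genes where 3.04% of all genes were called. Between cortex and muscle the difference was -0.33 (SE 0.08, edgeR adjusted p = 0.0231), again the only member called against 2.54% of all genes, and its call was lost without scaling (adjusted p = 0.121) and in 36-week mice alone (adjusted p = 0.109). Between spinal cord and cortex it was -0.28 (interval -0.45 to -0.12, edgeR adjusted p = 0.147), and 0 of 8 members were called against 0.0672% of all genes.

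**Figure D1:**
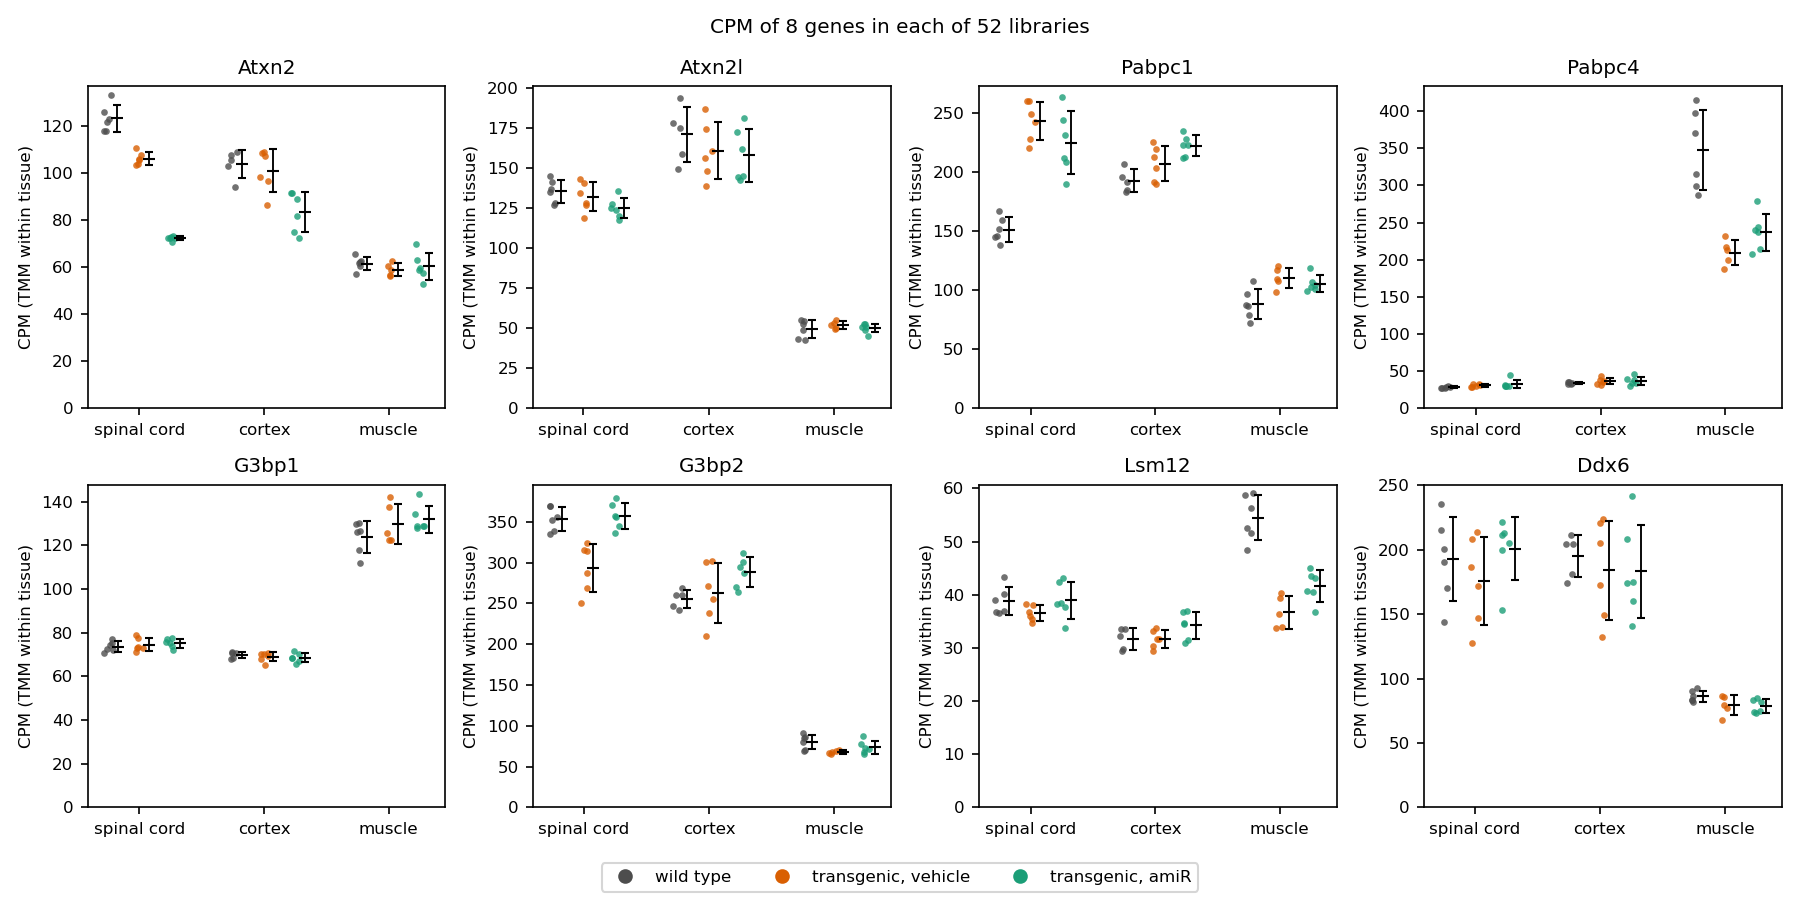
TMM-scaled CPM (vertical axes, linear and starting at 0) of the 8 genes in each of 52 libraries, by tissue and arm, with means and SD bars. Atxn2 in spinal cord forms 3 separate bands, with amiR-treated libraries between 70.9 and 73.5 CPM, while muscle libraries overlap.

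Set against all genes, 2 of 8 members were called in amiR minus vehicle spinal cord, Atxn2 lower and G3bp2 higher, where 5.11% of 20307 genes were called, 2.92% higher and 2.19% lower. Leaving out 1 library moved those 1037 genes to between 242 (without amiR-arm replicate 4) and 2539 (without amiR-arm replicate 1), and 2 members were called each time. In cortex 0 of 8 were called by edgeR, against 0.0197% of genes (0.00986% in each direction). An unadjusted edgeR p under 0.05 was held by 2 members, Atxn2 and Lsm12, and DESeq2 called 1, Atxn2. Shares of all genes by those criteria are not given here, so these counts have no background to be set against. In muscle 1 of 8 was called, Lsm12 higher, against 1.12% of genes (0.767% higher and 0.354% lower). The median change of the 8 members on the log2 scale was 0.04 in spinal cord, with 0.00 in cortex and 0.03 in muscle, beside medians of 0.00, -0.01 and 0.00 over all genes tested.

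Vehicle-arm against wild-type tissue held more calls, among members as among all genes. In spinal cord 3 of 8 were called, Pabpc1 higher and G3bp2 and Atxn2 lower, where 36.8% of genes were called, 18.8% higher and 17.9% lower. In muscle 4 of 8 were called, Pabpc1 higher and Pabpc4, Lsm12 and G3bp2 lower, where 50.5% of genes were called, 25.7% higher and 24.8% lower. In cortex 0 of 8 were called by edgeR, against 0.0247% of genes (0.0148% higher and 0.00986% lower). There 0 were called by DESeq2 and 0 had an unadjusted edgeR p under 0.05, for which shares of all genes are not given here. These shares are near or below those of all genes, so the counts say nothing particular about the 8.

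AmiR-arm against wild-type tissue uses the same wild-type libraries as that comparison and the same treated libraries as the first. In spinal cord 2 of 8 were called, Pabpc1 higher and Atxn2 lower, against 25.5% of genes, 14.6% higher and 11% lower. In cortex 0 of 8 were called by edgeR, against 1.12% of genes (0.666% higher and 0.459% lower). An unadjusted edgeR p under 0.05 was held by 3 members, Atxn2, Pabpc1 and Lsm12, and DESeq2 called 2, Atxn2 and Pabpc1. Shares of all genes by those criteria are not given here, so these counts have no background to be set against. In muscle 3 of 8 were called, Pabpc1 higher and Pabpc4 and Lsm12 lower, against 35.2% of genes, 17.5% higher and 17.7% lower.

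**Figure D2:**
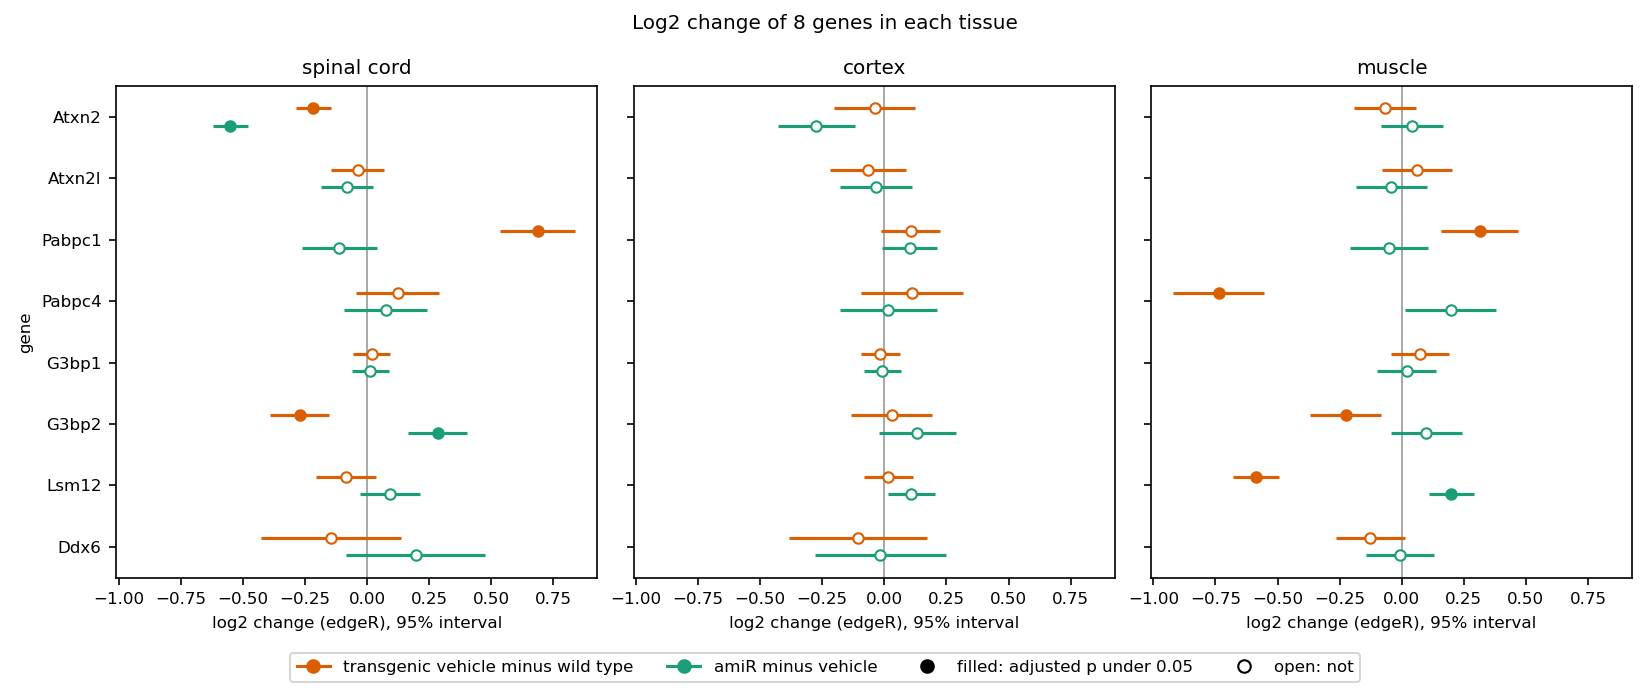
Log2 change (horizontal axes, edgeR, with 95% intervals) of the 8 genes in each tissue, for vehicle-arm minus wild-type and amiR minus vehicle libraries; filled points passed an adjusted p of 0.05. Atxn2 and G3bp2 are filled for amiR minus vehicle in spinal cord, Lsm12 in muscle, and no gene in cortex.

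Atxn2l (ENSMUSG00000032637, chr7:126491708-126503437, minus strand) encodes ataxin-2-like, which has the same kinds of domain as ataxin-2 and also enters stress granules. It did not rise with the amiR. Spinal cord libraries ran from 127.1 through a median of 136.2 to 144.9 CPM in wild type, from 119.1 through 131.5 to 143.3 in the vehicle arm, and from 117.5 through 124.8 to 135.5 in the amiR arm, and all 3 ranges overlapped. The amiR minus vehicle change was -0.08 on the log2 scale (SE 0.05, edgeR adjusted p = 0.354), and its 95% interval, -0.19 to 0.03, leaves room for a rise of at most 1.80%. In cortex the change was -0.03 (interval -0.18 to 0.11, edgeR adjusted p = 0.903) and in muscle -0.04 (interval -0.18 to 0.10, edgeR adjusted p = 0.786). With the transgene alone the changes were -0.04, -0.07 and 0.06 in spinal cord, cortex and muscle, and none passed the test.

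The ratio of Atxn2l to Atxn2 did differ between arms. Atxn2 is its denominator, so the log2 change of -0.55 in Atxn2 with the amiR in spinal cord raises the ratio by itself. A higher ratio therefore does not show a rise of Atxn2l. A ratio of 2 genes in 1 library does not depend on the scaling between libraries. The count of Atxn2l divided by that of Atxn2 in spinal cord was 0.964 to 1.18 in wild-type libraries, 1.13 to 1.39 in the vehicle arm and 1.62 to 1.84 in the amiR arm, where it stood above every other spinal cord library. The log2 ratio was higher by 0.47 in the amiR than in the vehicle arm (exact two-sided permutation test, p = 0.00216, the smallest that the design can give, adjusted p = 0.0117 over 27 tests of 3 ratios). It was higher by 0.18 in the vehicle arm than in wild type (exact permutation test, adjusted p = 0.0455, groups overlapping). That second call was lost when any of 9 single libraries was left out, with exact adjusted p up to 0.0877, and in 36-week mice alone (0.158). With 36-week mice alone the amiR minus vehicle difference was 0.48 (exact permutation adjusted p = 0.0771), where 4 libraries against 4 can give no raw p below 0.0286. In cortex the ratio had medians of 1.66, 1.59 and 1.89 in wild-type, vehicle and amiR libraries, and the amiR minus vehicle difference of 0.25 did not pass (exact permutation test, adjusted p = 0.124). In muscle the medians were 0.818, 0.883 and 0.848, and no difference passed.

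**Figure D3:**
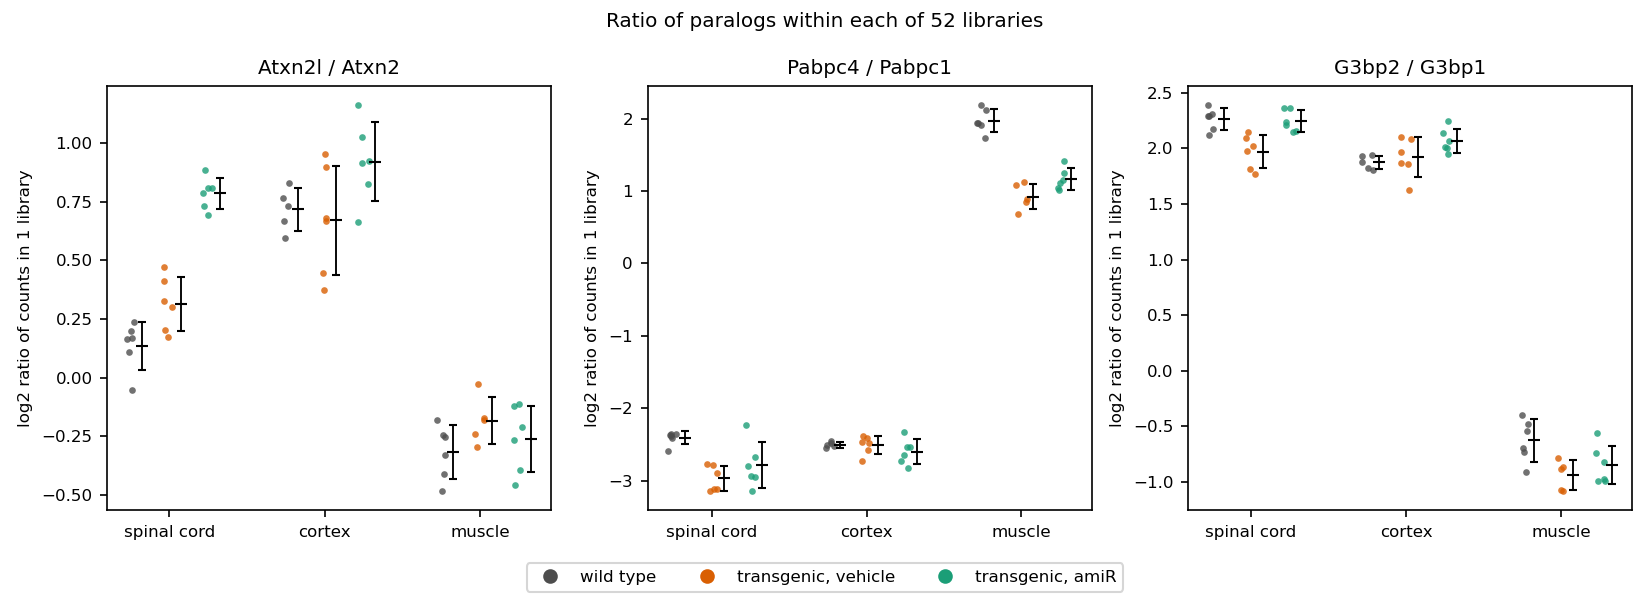
Log2 ratio of counts of 2 paralogs within each of 52 libraries (vertical axes), by tissue and arm, with means and SD bars. The Atxn2l to Atxn2 ratio of amiR-treated spinal cord lies above that of every other spinal cord library, and the Pabpc4 to Pabpc1 ratio is above 0 in muscle and below 0 in spinal cord and cortex.

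Poly(A)-binding proteins coat the mRNA tail and carry the docking site for ataxin-2. Pabpc1 (ENSMUSG00000022283, chr15:36595661-36609668, minus strand), the main cytoplasmic form, rose with the transgene in spinal cord. Wild-type libraries ran from 137.7 through a median of 148.5 to 166.8 CPM, vehicle-arm libraries from 220.3 through 245.3 to 259.6, and amiR-arm libraries from 189.7 through 221.2 to 263.0. No wild-type library reached the level of a transgenic one, and the transgenic arms overlapped. Against wild type the vehicle arm was higher by 0.69 on the log2 scale (SE 0.07, edgeR adjusted p = 1.64e-06), a rise of 61.0%, and the amiR arm by 0.58 (SE 0.07, edgeR adjusted p = 2.05e-05). The amiR minus vehicle change was -0.11 (interval -0.26 to 0.04, edgeR adjusted p = 0.372). Beside the rise, summed astrocyte markers went from 4578 to 5956 CPM in wild type to 7767 to 9270 CPM in the vehicle arm (3 of 6 higher by test), and summed neuron markers from 5643 to 6026 CPM to 3650 to 4415 CPM (4 of 6 lower), while 0 of 6 oligodendrocyte, 0 of 4 Schwann cell and 0 of 4 red blood cell markers were called. The part of these cells was not tested. In muscle Pabpc1 rose by 0.31 in the vehicle arm (SE 0.07, edgeR adjusted p = 0.00200) and by 0.26 in the amiR arm (SE 0.07, edgeR adjusted p = 0.00783) over wild type, with overlapping groups, and the second call was lost with RNA integrity as a covariate (0.18, adjusted p = 0.111). Without scaling these muscle changes were 0.65 and 0.46. In cortex its amiR minus wild-type change was 0.21 (SE 0.06, edgeR adjusted p = 0.0681), although 6 of 6 treated libraries, from 211.7 to 234.4 CPM, lay above all 5 wild-type ones, from 182.9 to 206.9 CPM.

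Pabpc4 (ENSMUSG00000011257, chr4:123262351-123298925, plus strand), a second cytoplasmic form first described in activated T cells, went the other way in muscle. Its level there was 287.3 through a median of 342.2 to 414.3 CPM in wild type, 187.6, 199.0, 213.4, 216.7 and 231.2 CPM in the vehicle arm, and 207.5 through 238.6 to 278.6 CPM in the amiR arm. All wild-type libraries lay above all transgenic ones. Against wild type the vehicle arm changed by -40.0%, a log2 change of -0.74 (SE 0.09, edgeR adjusted p = 4.02e-06), and the amiR arm by -31.2%, a log2 change of -0.54 (SE 0.08, edgeR adjusted p = 9.54e-05). Without scaling they were -0.40 and -0.34, both called. The amiR minus vehicle change of 0.20 had an interval of 0.02 to 0.38 and did not pass after adjustment (edgeR adjusted p = 0.224). Beside it, the summed muscle-fibre markers fell from 101654 to 130256 CPM in wild-type muscle to 56689 to 81103 CPM in the vehicle arm, with 5 of 6 lower by test, and stood at 76137 to 91122 CPM in the amiR arm, and 7 of 8 microglia markers, which other macrophages share, were higher in vehicle-arm muscle. The part of these markers in the change was not tested.

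In spinal cord Pabpc4 had a median of 28.0 CPM and at most 30.7 CPM in wild type, and ran from 28.7 to 33.3 CPM in the vehicle arm and from 29.8 to 44.3 CPM in the amiR arm, where the highest value was that of replicate 2 and the next was 31.8 CPM. That library also had the highest sums of muscle-fibre and adipocyte markers. The vehicle-arm minus wild-type change of 0.12 (SE 0.08, edgeR adjusted p = 0.244) became a call at 0.13 (adjusted p = 0.0294) without it, and at 0.16 (adjusted p = 0.0178) without the 4 conflicting libraries. With the counts of its copies added, the change over all libraries was 0.08 (edgeR adjusted p = 0.434), and the fits with libraries left out were not repeated that way. T-cell markers summed to 0.0885 to 0.341 CPM in wild-type and 0.443 to 1.02 CPM in vehicle-arm libraries, levels near the floor. Their tests are not used here, because the filter on low counts could keep such genes through the transgenic arms alone. The part of T cells was not tested. The ratio of Pabpc4 to Pabpc1 fell in vehicle-arm spinal cord by 0.56 on the log2 scale (exact permutation test, adjusted p = 0.0117), from 0.166 to 0.196 in wild type to 0.113 to 0.146. In muscle it fell by 1.05, from 3.33 to 4.55 in wild type to 1.61 to 2.18 in the vehicle arm, and by 0.81 in the amiR arm, to 2.02 to 2.68 (exact permutation test, adjusted p = 0.0117 for each). Without amiR-arm replicate 2, the amiR minus wild-type difference of this ratio in spinal cord went from -0.38 (exact permutation test, adjusted p = 0.0638) to -0.49 (adjusted p = 0.00974).

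G3BP proteins are the scaffold on which stress granules form. G3bp2 (ENSMUSG00000029405, chr5:92052146-92083719, minus strand) was the only member that rose in amiR-treated over vehicle-arm spinal cord. Wild-type libraries ran from 335.6 through a median of 354.1 to 369.6 CPM, vehicle-arm libraries from 250.6 through 300.8 to 324.0, and amiR-arm libraries from 336.2 through 356.5 to 379.4. The vehicle arm lay below both other arms without overlap, and the wild-type and amiR arms covered the same range. Vehicle minus wild type was -0.27 on the log2 scale (SE 0.06, edgeR adjusted p = 0.00106), or -17.2%. AmiR minus vehicle was 0.29 (SE 0.06, interval 0.17 to 0.40, edgeR adjusted p = 0.0122), a rise of 21.9%, and amiR minus wild type was 0.01 (interval -0.10 to 0.13, edgeR adjusted p = 0.890). Both called changes use the same vehicle libraries. The amiR minus vehicle call was lost in 36-week mice alone (0.23, edgeR adjusted p = 0.0894), with 4 libraries in each transgenic arm. It was also lost when the 4 conflicting libraries were assigned by library name (0.21, edgeR adjusted p = 0.298), against their vector counts. Beside it, the summed neuron markers ran from 5643 to 6026 CPM in wild type, from 3650 to 4415 CPM in the vehicle arm and from 3892 to 5490 CPM in the amiR arm, and 2 of 6 neuron and 1 of 5 motor neuron markers were higher by test with the amiR. The part of these markers in the changes of G3bp2 was not tested.

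G3bp1 (ENSMUSG00000018583, chr11:55469685-55504838, plus strand) kept within a narrow range in every tissue. In spinal cord it ran from 70.5 to 77.3 CPM in wild type, from 71.1 to 78.8 in the vehicle arm and from 72.0 to 77.5 in the amiR arm. Its amiR minus vehicle change was 0.01 in spinal cord (interval -0.06 to 0.09), -0.01 in cortex (interval -0.08 to 0.07) and 0.02 in muscle (interval -0.10 to 0.14), and none passed the test. Its coefficient of variation within an arm was between 2.12% and 7.03%, while that of Ddx6 went up to 20.9%. The ratio of G3bp2 to G3bp1 was higher by 0.28 in amiR than in vehicle spinal cord and lower by 0.29 in vehicle than in wild-type spinal cord (exact permutation test, adjusted p = 0.0146 for each). It was also higher by 0.20 in amiR-treated than in wild-type cortex, where the groups, at 3.87 to 4.75 and 3.49 to 3.84, did not overlap (exact permutation test, adjusted p = 0.0146). In muscle it was lower by a log2 difference of -0.31 in the vehicle arm than in wild type (exact permutation test, adjusted p = 0.0468), a call that held in 33 of 54 alternatives. The amiR minus vehicle call in spinal cord was lost in 36-week mice (0.25, exact permutation test, adjusted p = 0.129) and without the 4 conflicting libraries (0.38, exact permutation test, adjusted p = 0.0701).

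Lsm12 (ENSMUSG00000020922, chr11:102162497-102185296, minus strand) encodes a small protein with an LSm domain that is found with ataxin-2. Its largest difference was in muscle, with 48.4 through a median of 54.4 to 59.2 CPM in wild type, 33.7, 33.9, 36.3, 39.4 and 40.4 CPM in the vehicle arm, and 36.7 through 41.9 to 45.0 CPM in the amiR arm. Wild-type libraries lay above all transgenic ones, and the transgenic arms overlapped. Vehicle minus wild type was -0.59 on the log2 scale (SE 0.04, edgeR adjusted p = 6.37e-08), or -33.4%, and amiR minus wild type was -0.39 (SE 0.04, edgeR adjusted p = 3.45e-06). Without scaling they were -0.25 and -0.19, both called. AmiR minus vehicle was 0.20 (SE 0.04, edgeR adjusted p = 0.0374), a rise of 14.8% with 6 of 6 treated libraries above the vehicle mean. That call held in 11 of 27 alternatives, in which the adjusted p ran from 0.000805 to 0.352. The muscle-fibre and microglia markers given for Pabpc4 moved in the same libraries, and their part was not tested. In spinal cord Lsm12 ran from 33.7 to 43.4 CPM over all arms and in cortex from 29.4 to 37.0 CPM, with no call.

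Ddx6 (ENSMUSG00000032097, chr9:44604892-44640731, plus strand), the helicase of processing bodies that also links the CCR4-NOT deadenylase to decapping, was not called in any comparison. Its coefficient of variation within an arm was between 5.01% and 20.9%. Spinal cord libraries ran from 143.7 to 235.4 CPM in wild type, from 127.2 to 213.3 in the vehicle arm and from 152.8 to 221.1 in the amiR arm. With that spread, the interval of the amiR minus vehicle change in spinal cord was -0.08 to 0.48 around 0.20 (edgeR adjusted p = 0.397), so a rise as large as that of G3bp2 lay inside it. In muscle, where the spread was smaller, amiR minus vehicle was -0.01 (interval -0.14 to 0.13) and did not pass the test.

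The effect of the transgene differed between tissues by test for Pabpc1, G3bp2, Pabpc4 and Lsm12, and no difference of this kind was called for the other 4 members. In the model of all tissues, Pabpc1 rose more in spinal cord than in cortex by 0.56 (SE 0.10, edgeR adjusted p = 4.07e-05), and the change of G3bp2 was lower in spinal cord, by a difference of -0.32 (SE 0.10, edgeR adjusted p = 0.0245), where 9.68% of genes were called. That of G3bp2 lost its call without scaling (adjusted p = 0.131) and in 36-week mice (adjusted p = 0.133). Between spinal cord and muscle the differences were 0.83 for Pabpc4 (SE 0.12, edgeR adjusted p = 9.03e-07), 0.47 for Lsm12 (SE 0.07, edgeR adjusted p = 2.29e-07) and 0.34 for Pabpc1 (SE 0.10, edgeR adjusted p = 0.00468), where 31% of genes were called, and the last lost its call without scaling (adjusted p = 0.400). Between cortex and muscle they were 0.84 for Pabpc4 (edgeR adjusted p = 1.70e-06) and 0.59 for Lsm12 (edgeR adjusted p = 3.55e-09), where 27.7% were called. A positive difference for Pabpc4 and Lsm12 means that the change with the transgene was lower in muscle.

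Levels in wild-type tissue set the scale for these changes. Per kilobase of the transcript used for each gene (CPM per kb, TMM over all 52 libraries), Atxn2 stood at 21.2 ± 0.885 in spinal cord, at 18.6 ± 1.05 for cortex and at 23.3 ± 0.920 for muscle (SD, n = 6, 5 and 6). Atxn2l stood at 26.8 ± 1.37, 35.2 ± 3.53 and 21.6 ± 2.32. The highest level of the 8 was that of G3bp2 in both nervous tissues, 89.9 ± 3.97 and 67.6 ± 2.99, and that of Pabpc4 in muscle, 195 ± 28.9. Spinal cord then had Pabpc1 (41.2 ± 2.76), Atxn2l, Ddx6 (24.4 ± 4.13), Atxn2, Lsm12 (13.2 ± 0.868), G3bp1 (8.45 ± 0.283) and, lowest of the 8, Pabpc4 (7.23 ± 0.323), and there the neighbours from Atxn2l to Atxn2 differed by less than the sum of their SDs. In muscle the order below Pabpc4 was Pabpc1 (53.0 ± 7.36), G3bp2 (45.0 ± 4.80), Lsm12 (40.9 ± 2.94), G3bp1 (31.3 ± 1.59), Ddx6 (24.1 ± 1.17), Atxn2 (23.3) and Atxn2l (21.6). Neighbours from Pabpc1 to Lsm12, and from Ddx6 to Atxn2l, were as close as that in muscle. In cortex Pabpc1 (54.6 ± 2.68) and Atxn2l followed G3bp2, then Ddx6 (25.7 ± 2.27), Atxn2, Lsm12 (11.2 ± 0.681), Pabpc4 (8.98 ± 0.301) and G3bp1 (8.31 ± 0.177), each neighbour further apart than that.

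**Figure D4:**
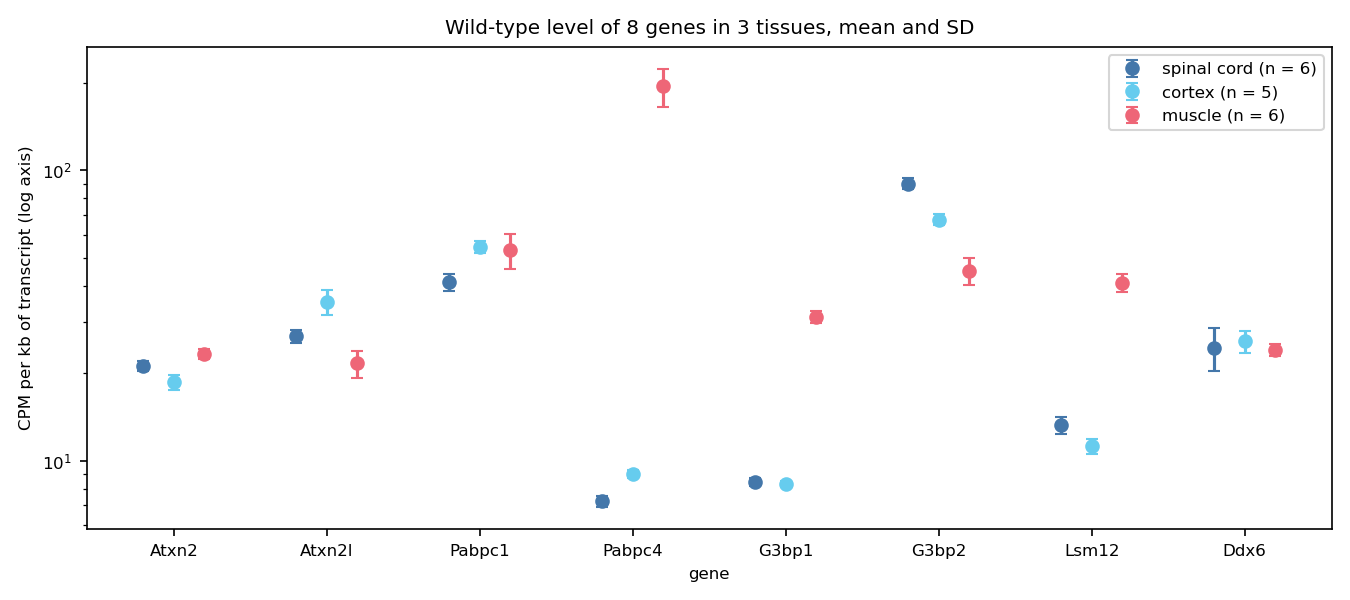
Wild-type level of each gene in 3 tissues as CPM per kb of transcript (vertical axis, log scale), mean and SD. Pabpc4 is at 195 in muscle and 7.23 in spinal cord, while Ddx6 lies between 24.1 and 25.7 in all 3 tissues with TMM scaling. Levels of nervous tissue relative to muscle depend on the scaling, and the unscaled difference of Ddx6 is not given here.

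Between spinal cord and muscle 7 of 8 members differed in wild-type mice, where 85.8% of all genes did: Pabpc4 by -4.74, G3bp1 by -1.89 and Lsm12 by -1.63 on the log2 scale, all lower in spinal cord, and G3bp2 by 1.00, higher there. Between cortex and muscle 6 of 8 differed against 86.3% of genes, with Pabpc4 at -4.44, G3bp1 at -1.91 and Lsm12 at -1.88, and with Atxn2l at 0.68 and G3bp2 at 0.60. Between spinal cord and cortex 6 of 8 differed against 60.9% of genes, none by more than the 0.41 of Pabpc1, which was lower in spinal cord. Atxn2 was 0.19 higher in spinal cord than in cortex (SE 0.06, edgeR adjusted p = 0.00656). Its direction against muscle depended on scaling: it was -0.14 for spinal cord and -0.33 for cortex with TMM, and 1.12 and 0.90 without scaling. Pabpc1 likewise went from -0.36 to 0.89 between spinal cord and muscle. Without scaling, the differences between spinal cord and muscle were -3.48 for Pabpc4, -0.63 for G3bp1, -0.37 for Lsm12 and 2.26 for G3bp2. Those between cortex and muscle were then -3.21, -0.68, -0.65 and 1.83, and 1.91 for Atxn2l, with every call among these kept.

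Among the treated libraries, the level of the vector was set beside that of each member in 16 relations, 8 in each nervous tissue. No relation of Atxn2 was called: r was -0.08 in spinal cord (rho 0.03) and 0.36 in cortex (rho 0.31), with exact permutation p = 0.892 and 0.453, and -0.35 and -0.09 without the 2 libraries farthest from the median vector level. The single relation called was that of Atxn2l in cortex, where both rose together in all 6 libraries (r = 0.99, exact permutation adjusted p = 0.0222; rho = 1, adjusted p = 0.0444; r = 0.99 without the 2 farthest libraries). Sex separated these cortex libraries: the 3 from males lay above the 3 from females for both. WPRE was at least 5.52 log2 CPM in males and at most 5.01 in females, and Atxn2l at least 7.34 against at most 7.18. The permutation test has no term for sex, and the part of sex in the relation was not tested. In spinal cord Atxn2l had r = 0.43 (exact permutation adjusted p = 0.758). The relation in cortex had r = 0.96 without scaling (exact permutation adjusted p = 0.222) and r = 0.92 with the miRE element of the vector in place of WPRE (adjusted p = 0.200), so it was called in neither.

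**Figure D5:**
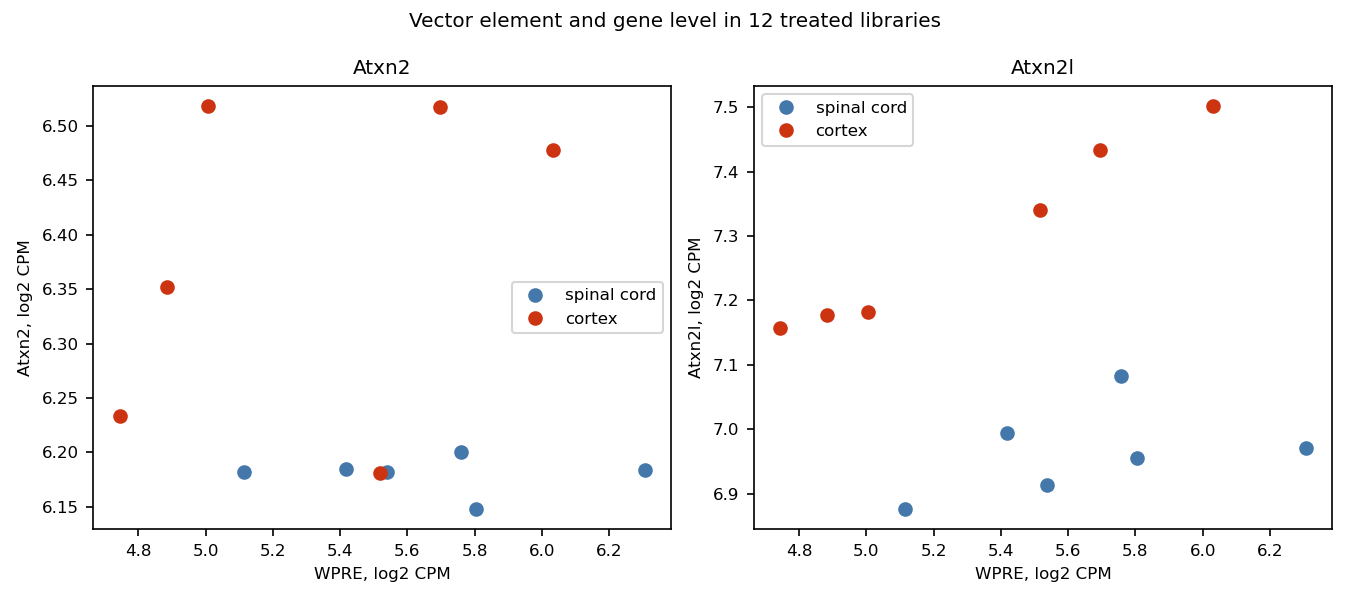
Log2 CPM of Atxn2 and of Atxn2l (vertical axes) against log2 CPM of the WPRE element of the vector (horizontal axes) in 6 amiR-treated libraries each of spinal cord and cortex. Atxn2l climbs with WPRE over the 6 cortex libraries (r = 0.99), and Atxn2 in spinal cord is flat. In cortex the libraries from males lie above those from females for both WPRE and Atxn2l.

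Related genes were read from lists chosen by name. The decapping and Lsm lists share Lsm1, Lsm14a and Lsm14b, so a call of any of these counts in both. With the amiR in spinal cord, 0 of 20 stress granule genes, 0 of 12 decapping genes and 0 of 12 Lsm genes were called, where 2.92% of all genes were higher and 2.19% lower. Of 25 partners of poly(A)-binding proteins and tail enzymes, 2 were higher and 1 lower: the translation initiation factors Eif4g1 (0.18 on the log2 scale) and Eif4b (0.16), and Cnot2 (-0.27), a subunit of the CCR4-NOT deadenylase. Of 9 reported ataxin-2 partners, 2 were higher, the endophilin gene Sh3gl2 (0.28) and the plastin gene Pls3 (0.19), and 0 lower. Of 8 other genes named ataxin, which are unrelated in sequence, 1 was higher, Atxn10 (0.21). A further gene with an ataxin name, Atxn7l3b, was not on this list. It was called lower with the amiR in spinal cord (-0.54) and in cortex (-0.39), as given below. In cortex, where 0.0197% of all genes were called for amiR minus vehicle, 0 of the listed genes were. In muscle, with 1.12% of all genes called, only Rbfox1 (0.37) was, a splicing regulator among the ataxin-2 partners. List medians in spinal cord lay between -0.05 and 0.07, beside 0.00 for all genes.

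With the transgene more of the same lists changed. In vehicle-arm over wild-type spinal cord 3 of 20 stress granule genes were lower (Fxr2 at -0.27, Ythdf1 at -0.18 and Usp10, whose product binds G3BP, at -0.16) and 0 higher, where 18.8% of all genes were higher and 17.9% lower. Of the 25 poly(A) genes 3 were higher and 7 lower, among them Paip2b (-0.30), an inhibitor of poly(A)-binding protein. Of 12 decapping genes 0 were higher and 4 lower, Nbdy, Edc3 (-0.17), Dcp2 (-0.53) and Lsm14b (-0.13). The Lsm family had 3 of 12 higher, such as Lsm10 (0.40) and Lsm5 (0.38), and 3 lower, such as Lsm11 (-0.69). Of the ataxin-2 partners 0 were higher and 4 of 9 lower, Sh3gl2 (-0.47), Itpr1 (-0.38), Pls3 (-0.30) and Rbfox1 (-0.19), and of the other ataxins 0 of 8 were higher and 2 lower, Atxn7l3 (-0.37) and Atxn10 (-0.16). Sh3gl2, Pls3 and Atxn10 were thus lower in the vehicle arm than in both other arms, as G3bp2 was, and both comparisons use the same vehicle libraries.

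In vehicle-arm over wild-type muscle 25.7% of all genes were higher and 24.8% lower. Stress granule genes were 3 higher and 6 lower of 20, with Caprin1 (0.26), whose product binds G3BP, up and the translational repressor Pum2 (-0.28) down. Poly(A) genes were 5 higher and 13 lower of 24 tested, with Cnot6l (0.61) and Gspt1 (0.43) up and the anti-proliferative deadenylation factor Tob1 (-1.02) and Paip2b (-0.66) down. Decapping genes were 0 higher and 7 lower of 12, including Lsm14a (-0.30) and Patl1 (-0.27), and Lsm genes 2 higher and 3 lower of 12, with Lsm6 at 1.20. The ataxin-2 partners were 4 higher and 2 lower of 9, with Itpr1 at -0.90, and the other ataxins 2 higher and 3 lower of 8, with Atxn10 at 0.84. In cortex, where 0.0247% of all genes were called with the transgene, 1 gene of these lists was, Nbdy. Over wild type the amiR arm of spinal cord, where 14.6% of all genes were higher and 11% lower, had 0 stress granule genes higher and 2 lower, 1 poly(A) gene higher and 6 lower, and 0 decapping genes higher and 3 lower. Of its Lsm genes 4 were higher and 3 lower, and of the ataxin-2 partners, as of the other ataxins, 0 were higher and 2 lower. In amiR-treated over wild-type cortex, with 0.666% of all genes higher and 0.459% lower, 1 poly(A) gene and 1 decapping gene were lower and 1 other ataxin was higher. In muscle, with 17.5% higher and 17.7% lower, stress granule genes were 6 higher and 2 lower, poly(A) genes 3 higher and 9 lower, and decapping genes 0 higher and 3 lower. Lsm genes there were 2 higher and 1 lower, the ataxin-2 partners 1 higher and 1 lower, and the other ataxins 1 higher and 3 lower.

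Nbdy (ENSMUSG00000086316, chrX:153723590-153741920, plus strand), which encodes a microprotein of the decapping complex, split the arms in all 3 tissues. Wild-type libraries held 14.9 to 17.7 unscaled CPM in spinal cord, while cortex had 9.82 to 12.9 and muscle 4.29 to 6.11. In the 35 transgenic libraries it had between 0 and 5 counts, and 0 in all amiR-arm spinal cord and all transgenic muscle libraries. Against the level of 3 counts in a library, which a count of 0 allows, it was at least 400-fold lower in amiR-arm spinal cord, at least 129-fold lower in vehicle-arm muscle and at least 134-fold lower in amiR-arm muscle. Whether the transgenic and wild-type mice differ at this locus was not tested.

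The 5 genes whose pattern was most like that of Atxn2 were ranked by Pearson's r with Atxn2 over 52 libraries, on log2 CPM with each tissue mean removed, among 13737 genes. They were Atxn7l3b (r = 0.90), Brms1l (0.81), Fam8a1 (0.80), Dennd1a (0.80) and Tapt1 (0.79). Within tissues, Atxn7l3b had r = 0.98 in spinal cord, with 0.86 in cortex and -0.00 in muscle. In amiR minus vehicle spinal cord Atxn7l3b (chr10:112925430-112929001, minus strand) changed by -0.54 (SE 0.03, edgeR adjusted p = 8.14e-08), next to -0.55 for Atxn2. In cortex it was called at -0.39 (SE 0.04, edgeR adjusted p = 0.00301), and in muscle it was at -0.10 (SE 0.06, edgeR adjusted p = 0.361). Dennd1a (chr2:37798991-38287390, minus strand) changed by -0.39 (SE 0.04, edgeR adjusted p = 0.000431) in spinal cord and stood at -0.29 in cortex (edgeR adjusted p = 0.0950). Tapt1, Brms1l and Fam8a1 were also called in spinal cord, at -0.31, -0.23 and -0.22, and in neither other tissue. Since the ranking used these same libraries, their changes describe the likeness and do not test it. None of the other 7 members was near this rank: Atxn2l had r = 0.41, 675th of 13737, Pabpc1 -0.46, and the other 5 lay between -0.10 and 0.11.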

How the data were processed

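The submitters sequenced poly(A) RNA as paired reads and deposited 1 table of expected counts per gene (the estimated counts that RSEM gives) for 52 libraries. Per the submitters' processing notes the genomes were GRCh38 and GRCm38 and the tools DESeq2 1.34.0, RSEM 1.3.2, STAR 2.7.2d and bcl2fastq 2.20; their roles, the annotation release and the strand setting are not given in the sources used here, so reads of overlapping antisense genes cannot be told apart. Expected counts deposited by the authors were rounded to whole numbers here (6.98% of values were not whole). Of 55510 lines, 55401 were mouse genes, and 1 human gene, 16 vector elements and 92 spike-in lines, at most 0.167% of a library, were left out of library sizes and tests. Symbols came from GENCODE M21. Totals of mouse gene counts were 66.5 M to 111.9 M per library and bear on counting error only.

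Samples were grouped by title. Each tissue was fitted with edgeR 4.0.16 in R 4.3.3 (quasi-likelihood test, TMM scaling, filterByExpr, arm and sex as terms), and p-values were adjusted by Benjamini-Hochberg over all genes tested (20307, 20278 and 16949 in spinal cord, cortex and muscle). Called means an adjusted p under 0.05. Differences between tissues came from 1 fit of all libraries with group and sex within tissue (22316 genes), and DESeq2 1.42.0 was an alternative tool. Ratios and relations used permutation tests in scipy 1.17.1, two-sided. On simulated counts for amiR minus vehicle spinal cord (20097 genes), edgeR recovered 53.5% of 99 genes changed by 0.5 and 82.0% of 100 changed by 1 on the log2 scale.

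The 8 members are named in every comparison; of each gene list, up to 4 called genes with the smallest adjusted p are named, and the 5 genes most like Atxn2 were taken by r. Members and lists were chosen with earlier results of these data known. The relations among members and with RNA integrity, and the addition of near-identical copies, were chosen after seeing the data. Alternatives covered scaling, filter, covariates, age, conflicting labels, arms fitted, tool, replicate number and each library left out. The result of 1 gene of the lists is not reported here.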

Additional observations from a re-analysis of the deposited data

Results flagged for a closer look

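Of 72 sets of 5 or 6 libraries checked for a library far from the rest, 3 had one. Chance alone marks about 1 set in 20, so these 3 are no more than chance would mark. In amiR-arm spinal cord, replicate 6 had 70.9 CPM of Atxn2 while the other 5 lay between 72.6 and 73.5 CPM, a gap of 0.651 of the whole range, which is itself narrow. Replicate 2 of that arm was marked for 2 genes. Its Pabpc4 was 44.3 CPM with the next library at 31.8 CPM, a gap of 0.861 of the range, and its Ddx6 was 152.8 CPM with the highest library at 221.1 CPM, a gap of 0.691 of the range to the next. Its muscle-fibre and adipocyte markers were also the highest of 18 spinal cord libraries, and its title and library name disagree; their part in these values was not tested.

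A change differed between tissues by test in 9 cases. For the transgene, the change of Pabpc1 was higher in spinal cord than in cortex by 0.56 and than in muscle by 0.34 on the log2 scale, and that of G3bp2 differed between spinal cord and cortex by -0.32. The change of Pabpc4 was higher than in muscle by 0.83 in spinal cord and by 0.84 in cortex, and that of Lsm12 by 0.47 and 0.59. For the amiR, the change of Atxn2 differed from that in muscle by -0.62 in spinal cord and by -0.33 in cortex.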

How the results depend on the processing

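Over 156 changes of single genes and ratios and 2784 alternative values of them, 2672 kept their direction and side of the threshold or passed in neither fit, 64 lost a call, 40 gained one and 8 changed sign with a call in at least 1 fit. Among the 2672, 104 differed in sign with neither fit past the threshold. All 8 reversals came without scaling between libraries, which moved the median of all muscle genes by 0.345 (vehicle minus wild type), 0.198 (amiR minus wild type) and -0.133 (amiR minus vehicle): for vehicle minus wild-type muscle, Atxn2 to 0.27, G3bp2 to 0.11 and Ddx6 to 0.21; for amiR minus wild-type muscle, Atxn2 to 0.17; for the transgene effect in cortex minus muscle, Atxn2 to -0.27; in wild-type spinal cord minus muscle, Pabpc1 to 0.89 and Atxn2 to 1.12; and in wild-type cortex minus muscle, Atxn2 to 0.90. The cause was not tested.

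Counts of members called moved as follows. In amiR minus vehicle spinal cord it was 1 in 36-week mice and 0 with the 4 libraries by library name, where 0 of all genes were called. That assignment goes against the vector counts of these libraries. In cortex, amiR minus vehicle gave 1 with DESeq2, and amiR minus wild type gave 2 with DESeq2, 1 with only the 2 arms fitted, and 0 to 2 with 1 library left out. In amiR minus vehicle muscle it was 0 without scaling, filter or sex term, in 36-week mice, with 2 arms and with the replicate block, and 0 to 1 with 1 library left out. Without scaling it was 7 for vehicle and 6 for amiR minus wild-type muscle. Over all 16949 muscle genes the calls then also rose, from 8552 to 10573 and from 5959 to 7244. For differences of the transgene effect between tissues it was then 1 (spinal cord minus cortex), 6 (spinal cord minus muscle) and 6 (cortex minus muscle), and for the amiR effect in cortex minus muscle 0, as in 36-week mice. Shares of all genes for these differences without scaling are not given here. Ratios called were 6 in 36-week mice and 8 to 11 with 1 library left out, and vector relations 0 under both alternatives. The cause was not tested. The other counts with 1 library left out were 2 to 2, 3 to 4 and 2 to 3 in spinal cord (amiR minus vehicle, vehicle minus wild type, amiR minus wild type), 0 to 0 for the other cortex comparisons, and 4 to 5 and 3 to 3 in muscle against wild type.

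Over all genes, no scaling gave 558 for 1037 calls in amiR minus vehicle spinal cord, 24 for 228 in amiR minus wild-type cortex and 596 for 190 in amiR minus vehicle muscle. Like-numbered libraries correlated in their deviations from arm means between -0.16 and 0.34 in spinal cord, -0.45 and 0.65 in cortex and -0.26 and 0.57 in muscle. These ranges span negative and positive values and do not settle whether the numbers mark pairs. The labels do not tie the numbers to animals, and they were not taken as pairs. The replicate block changed 1 of 72 calls, Lsm12 in amiR minus vehicle muscle (0.16, edgeR adjusted p = 0.213).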

Other observations

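Within arms, some members varied together across libraries and others ran opposite. Of 84 relations computed over 3 tissues, Pearson's r passed after adjustment in 15, of which 8 were in cortex, 5 in spinal cord and 2 in muscle. Over the 18 spinal cord libraries, each taken as its deviation from the mean of its arm, Atxn2l and Ddx6 ran opposite (r = -0.81, permutation adjusted p = 0.00903; rho = -0.90, adjusted p = 0.00168; r = -0.75 without the 2 libraries farthest from the median of Atxn2l). Lsm12 ran with Atxn2l and opposite to Ddx6 both there (r = 0.60, permutation adjusted p = 0.0354, and r = -0.66, adjusted p = 0.0146; rho = 0.76 and -0.81, adjusted p = 0.0109 and 0.00364; r = 0.62 and -0.66 without the 2 farthest) and over the 17 cortex libraries (r = 0.81, permutation adjusted p = 0.00903, and r = -0.76, adjusted p = 0.0118; rho = 0.75 and -0.77, adjusted p = 0.0183 and 0.0140; r = 0.79 and -0.67 without the 2 farthest). In cortex Atxn2l also ran opposite to G3bp2 (r = -0.78, permutation adjusted p = 0.00903; rho = -0.82, adjusted p = 0.00651; r = -0.68 without the 2 farthest), and in spinal cord Pabpc4 opposite to Ddx6 (r = -0.73, permutation adjusted p = 0.00903; rho = -0.73, adjusted p = 0.00364; r = -0.71 without the 2 farthest). G3bp2 and Ddx6 ran together in spinal cord (r = 0.74, permutation adjusted p = 0.0149; rho = 0.71, adjusted p = 0.0407; r = 0.61 without the 2 farthest) and in cortex (r = 0.81, adjusted p = 0.0118; rho = 0.76, adjusted p = 0.0317; r = 0.71 without the 2 farthest). In muscle Pabpc4 and Lsm12 ran together (r = 0.72, permutation adjusted p = 0.0257; rho = 0.71, adjusted p = 0.0270; r = 0.62 without the 2 farthest), as did Atxn2 and Pabpc4 (r = 0.68, adjusted p = 0.0149; rho = 0.68, adjusted p = 0.0235; r = 0.62 without the 2 farthest). Atxn2 had no called relation with another member in spinal cord or cortex. The genes of a library share its scaling and depth. Deviations from arm means keep differences of age and sex, and all 4 older spinal cord mice were female. In the amiR arm the 2 older libraries exceeded all 36-week ones for Atxn2l (at least 127.5 against at most 125.5 CPM). They also did for Pabpc4, and for Ddx6 they lay below the 36-week minimum of 205.3 CPM. In the vehicle arm these ranges overlapped. Lsm12 was higher in the older libraries there, and overlapped in the amiR arm. The part of age and sex in the relations was not tested.

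RNA integrity (RIN, 7.1 to 8.3) was related to 1 member among 24 relations of this kind: Atxn2 in spinal cord (r = 0.63, permutation adjusted p = 0.0391; rho = 0.60, adjusted p = 0.0624), and r was 0.38 without the 2 libraries farthest from the median RIN. With RIN as a covariate, Atxn2 in amiR minus vehicle spinal cord was -0.57 (edgeR adjusted p = 1.10e-07).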
